A study of Homo sapiens with 6 samples.

Results

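The lysyl oxidase family of 5 genes (LOX, LOXL1, LOXL2, LOXL3 and LOXL4) was followed in MDA-MB-231 cells with and without overexpressed ADAMTS1. The members were taken by gene symbol, and all 5 were found among the 31835 genes of the table, each as a single entry. The family was picked with the difference between the groups already known, so its own values are given as a description. Counts of members past a threshold are given only beside the share of all tested genes, and nothing is read from them. MDA-MB-231 is a widely used human line of triple-negative, mesenchymal-type breast cancer. RNA was sequenced from 6 libraries in 2 groups, 3 labelled Vector and 3 labelled ADAMTS1, with no other treatment, time or allele given. ADAMTS1 is a secreted metalloprotease that cuts matrix proteoglycans, and the title of the series links its zymogen to chemoresistance and metastasis of breast cancer. Whether the cells were a clone or a pool, what drove the construct, which form of ADAMTS1 it encoded and whether the libraries came from separate cultures were not given in the sources used here. With that unstated, p-values measure the spread between these libraries, which may be technical.

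Lysyl oxidases are secreted copper enzymes that oxidise the amino group of lysine in collagen and elastin. The aldehydes formed react with each other and with lysine to cross-link fibres, which stiffens the matrix. LOX and LOXL1 carry a propeptide that is cut off outside the cell, while LOXL2, LOXL3 and LOXL4 carry scavenger receptor cysteine-rich domains instead. In breast cancer LOX is known as a target of the hypoxia-inducible factor HIF-1 that promotes spread to distant sites, and LOXL2 is known to work with the repressor Snail on the E-cadherin gene.

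Levels are FPKM, that is, fragments per kilobase and per library total, so genes can be set against each other per length. How many fragments lie behind a value is unknown. With the first vector library set to 1, relative depth was 1.17 and 1.26 in the other vector libraries and 1.41, 1.04 and 1.43 in the ADAMTS1 libraries. ADAMTS1 itself was at 6.56, 6.72 and 6.99 FPKM with the vector and at 499, 462 and 501 FPKM with ADAMTS1, so each library matched its label. All 14 identity genes of the line were measured above the filter on low values, with VIM, the mesenchymal intermediate filament, and FOSL1, an AP-1 subunit, highest. Of 14 luminal markers 12 were matched in the table and 5 passed that filter, KRT19 (a keratin) and XBP1 (a secretory stress regulator) highest, while ESR1 (oestrogen receptor) averaged 0.0192 FPKM with the vector and 0.0332 FPKM with ADAMTS1. The 10 fibroblast markers summed to 2.08 to 2.17 FPKM with the vector and 1.71 to 2.16 FPKM with ADAMTS1, most of it COL1A1, with DCN listed at 0 in every ADAMTS1 library. The 9 haematopoietic markers summed to at most 1.29 FPKM in any library. The 9 endothelial markers summed to 64.5 to 67.1 FPKM with the vector and 65.8 to 70.7 FPKM with ADAMTS1, nearly all from ESAM and EGFL7, while the defining markers PECAM1 and CDH5 averaged 0.101 and 0.0226 FPKM with the vector and 0.0512 and 0.0138 FPKM with ADAMTS1. TIE1, an endothelial receptor gene, was at 2.62 ± 0.228 FPKM with the vector and 3.82 ± 0.205 FPKM with ADAMTS1, with no overlap. Some markers under the filter, named with their values in view, did not overlap either. The endothelial PECAM1 and VWF were lower with ADAMTS1, VWF at 0.045 FPKM with the vector and 0.019 FPKM with ADAMTS1. The fibroblast marker PDGFRB was also lower (0.156 and 0.0683 FPKM), and the haematopoietic CD53 was higher (0.0257 and 0.212 FPKM). Of the tested markers of these other cell types 0 passed the test described below, and TIE1 alone had an unadjusted p under 0.05. Their part in the values of the family was not tested. In bulk RNA, fewer cells of a kind and less RNA per cell cannot be told apart.

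The promoters of LOX and LOXL4 are shown because these are the members with a sequence at hand whose groups separated in opposite directions. Each run is the 250 bases before a RefSeq start of transcription, read 5′ to 3′ on the minus strand, where both genes lie, from RefSeq on GRCh38.p14 (chr5:122078260-122078509 for LOX and chr10:98268195-98268444 for LOXL4). RefSeq lists 3 starts for LOX and 1 for LOXL4, and the start nearest the gene end of the deposited table was used. That of LOXL4 is at this end, while that of LOX lies 154 bases inside it, so that as many bases of the LOX run lie within the gene as the table gives it. Capitals mark ACGTG or its reverse CACGT, the core of a HIF site, in LOX, and CACCTG, the E-box bound by Snail and ZEB factors, in LOXL4.
LOX: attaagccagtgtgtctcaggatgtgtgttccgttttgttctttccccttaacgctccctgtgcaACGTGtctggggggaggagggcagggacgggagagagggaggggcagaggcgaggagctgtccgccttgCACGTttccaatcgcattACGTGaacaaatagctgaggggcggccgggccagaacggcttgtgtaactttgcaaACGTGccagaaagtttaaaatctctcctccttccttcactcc
LOXL4: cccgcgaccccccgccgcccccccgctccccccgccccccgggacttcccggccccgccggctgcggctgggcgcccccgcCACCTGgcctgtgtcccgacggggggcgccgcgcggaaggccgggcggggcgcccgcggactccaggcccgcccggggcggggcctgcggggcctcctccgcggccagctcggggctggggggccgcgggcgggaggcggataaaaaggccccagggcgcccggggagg

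The LOX window held the HIF core at 4 places, counted on both strands with overlapping matches joined. Only the first of these lies before the gene as the table gives it, and the rest lie within it. Of 34943 RefSeq windows of this length 18.5% held the HIF core at least once and 0.0887% at 4 or more places. The cut at 4 was set at the count seen in LOX, so that share is no test. The windows of LOXL1, LOXL3 and LOXL4 held the HIF core at 0 places. The E-box CACCTG or CAGGTG was found once in LOXL4 and in 17.5% of all windows, and at 0 places in LOX, LOXL1 and LOXL3. A TEAD site, CATTCC or GGAATG, was found at 2 places in LOXL3, at 0 in the other 3, and in 11.9% of all windows. Neither the AP-1 site TGANTCA (6.59% of windows) nor the TATA box TATAAA or its reverse (10.8%) was found in any of the 4. The GC content was 55.2% for LOX, 66.8% for LOXL1, 64.4% for LOXL3 and 86.4% for LOXL4, against a median of 58% over all windows. The starts used for LOXL1 and LOXL3 lay 473 and 1748 bases from the 5′ end of the gene in the deposited table, so their windows are displaced from it. LOXL2 was not matched in the promoter table. A match is a description of letters and does not show a bound site.

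The family was dominated by LOXL2 in these cells. LOXL2, which cross-links collagen IV among others, was at 70.5, 65.0 and 67.2 FPKM in the vector libraries and at 55.7, 56.8 and 58.3 FPKM in the ADAMTS1 libraries. All 3 ADAMTS1 libraries lay below all 3 vector libraries, by 6.67 FPKM between the nearest values. The mean was 67.5 ± 2.76 FPKM (SD, n = 3) with the vector and 56.9 ± 1.32 FPKM with ADAMTS1, a ratio of 0.843. The difference on the log2(FPKM + 1) scale, ADAMTS1 minus vector, was −0.24 ± 0.036 (standard error). By mean level it ranked 533 of all genes with the vector and 674 with ADAMTS1. LOXL2 (ENSG00000134013) lies on the minus strand of chromosome 8, 23296897 to 23425328 (hg38).

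LOX, the founding member and the enzyme of fibrillar collagen and elastin, was the next in level and lay the other way. It was at 7.08, 7.22 and 6.74 FPKM with the vector and at 7.36, 7.69 and 7.999 FPKM with ADAMTS1. The ADAMTS1 libraries were all above the vector libraries, but the nearest values were only 0.140 FPKM apart. The means were 7.01 ± 0.248 and 7.68 ± 0.318 FPKM, a ratio of 1.10 and a log2 difference of 0.12 ± 0.045. LOX (ENSG00000113083) lies on the minus strand of chromosome 5, 122063195 to 122078413 (hg38).

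The other propeptide enzyme, LOXL1, which is needed for elastic fibres, did not separate the groups. It was at 2.10, 1.85 and 1.79 FPKM with the vector and at 1.98, 2.05 and 1.92 FPKM with ADAMTS1. The ADAMTS1 values lay inside the vector range. The means were 1.92 ± 0.165 and 1.98 ± 0.0646 FPKM, with a log2 difference of 0.034 ± 0.071. LOXL1 (ENSG00000129038) lies on the plus strand of chromosome 15, 73925989 to 73952137.

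LOXL3, which is known to bind Snail as LOXL2 does, was at 1.31, 1.16 and 0.860 FPKM with the vector and at 1.20, 1.29 and 1.29 FPKM with ADAMTS1. The groups overlapped, and the third vector library stood low. The means were 1.11 ± 0.227 and 1.26 ± 0.0515 FPKM, with a log2 difference of 0.11 ± 0.10. Without vector replicate 3 this difference was 0.019. LOXL3 (ENSG00000115318) lies on the minus strand of chromosome 2, 74532258 to 74555690.

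LOXL4, which carries the same kind of domains as LOXL2 and LOXL3, was at 1.80, 1.46 and 1.44 FPKM with the vector and at 1.09, 1.30 and 1.38 FPKM with ADAMTS1. The groups did not overlap, with 0.0604 FPKM between the nearest values, which is less than the SD of either group. The means were 1.56 ± 0.201 and 1.26 ± 0.151 FPKM, a ratio of 0.804 and a log2 difference of −0.18 ± 0.095. With a pseudocount of 0.1, which shrinks low genes less, the difference was −0.29, and without vector replicate 1 it was −0.12. LOXL4 (ENSG00000138131) lies on the minus strand of chromosome 10, 98247690 to 98268194.

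**Figure D1:**
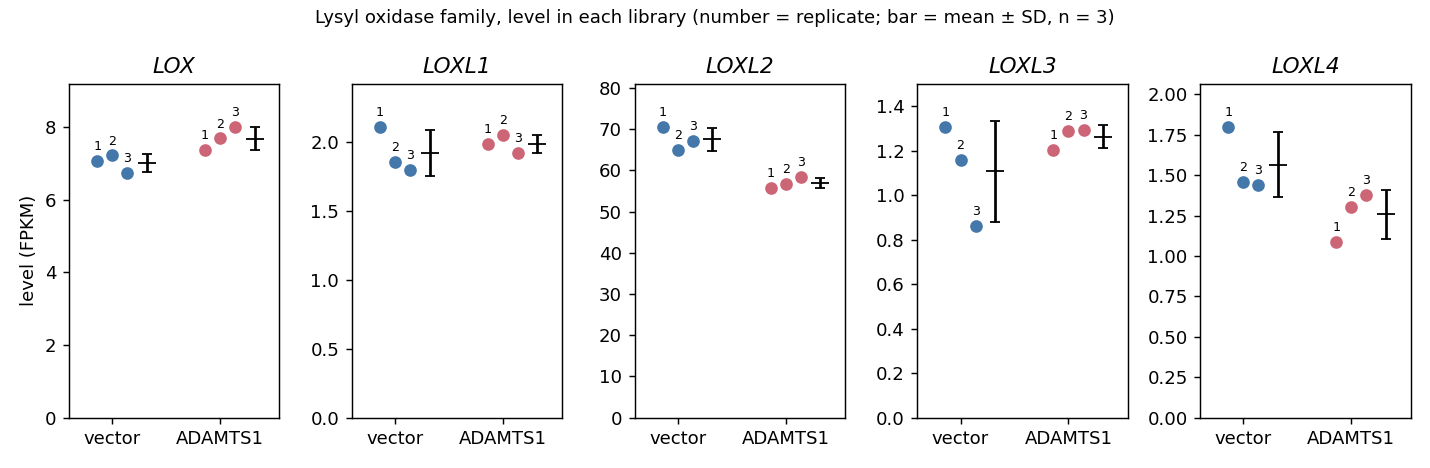
Level in FPKM (vertical axes from 0, a different range in each panel) of each lysyl oxidase gene in the 3 vector libraries (blue) and the 3 ADAMTS1 libraries (red); numbers are replicates and bars are the mean ± SD. LOXL2 and LOXL4 have all ADAMTS1 points below the vector points, LOX has them above, and LOXL1 and LOXL3 overlap.

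In all, 3 of the 5 members had groups that did not overlap, against 18.8% of the 11897 tested genes. The ADAMTS1 libraries lay above in 1 member and below in 2, against 8.15% and 10.6% of tested genes. All 5 had a mean of at least 1 FPKM and entered the fit by limma over all tested genes. Of them 0 passed an adjusted p of 0.05, against 0.0672% of tested genes, and 2 (LOX and LOXL2) had an unadjusted p under 0.05, against 12.2%. As the family was chosen on this same contrast, nothing is read from these counts. The median log2 difference of the members was 0.034, and that of all tested genes was −0.0078. The difference of LOXL2 exceeded that of 2.94% of tested genes when these are ordered from most negative to most positive. The place of LOXL4 in this order was 5.03%, that of LOXL1 69.2%, that of LOXL3 89.4% and that of LOX 90.4%.

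**Figure D2:**
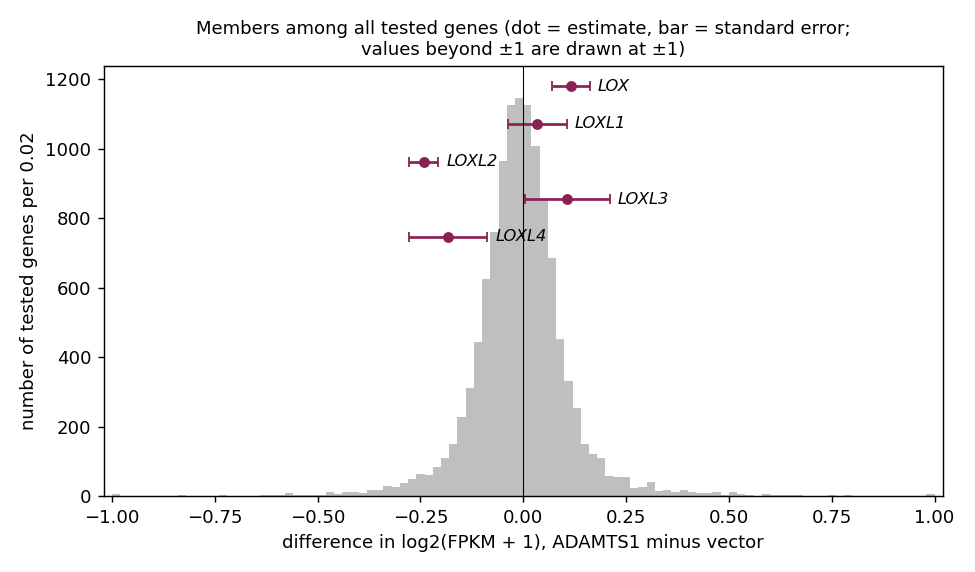
Histogram of the difference in log2(FPKM + 1), ADAMTS1 minus vector, over all 11897 tested genes (grey, number of genes per step of 0.02), with the 5 members as dots with their standard errors, placed at arbitrary heights. LOXL2 at −0.24 and LOXL4 at −0.18 lie in the left tail, LOX at 0.12 and LOXL3 at 0.11 to the right of the peak, and LOXL1 at 0.034 near it.

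Among the vector libraries the coefficient of variation was 3.54% for LOX and 4.08% for LOXL2, against a median of 5.15% over tested genes. It was 8.62% for LOXL1, 12.9% for LOXL4 and 20.5% for LOXL3, the members at 1 to 2 FPKM. Among the ADAMTS1 libraries it was 2.32% for LOXL2, 3.26% for LOXL1, 4.08% for LOXL3, 4.14% for LOX and 11.97% for LOXL4, with a median of 5.09% over tested genes. The first vector library, the shallowest by relative depth, held the highest value of the vector group for LOXL1, LOXL2, LOXL3 and LOXL4. The part of depth in these values was not tested.

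In the vector libraries the order by mean level was LOXL2, LOX, LOXL1, LOXL4, LOXL3. LOXL2 stood 9.63 times above LOX, and LOX stood 3.66 times above LOXL1, and neither pair overlapped between libraries. LOXL1 and LOXL4 overlapped, with means that differed 1.23-fold, though LOXL1 was the higher in each of the 3 libraries. LOXL4 was 1.41 times LOXL3 with no overlap. In the ADAMTS1 libraries the first 3 places were the same, at ratios of 7.41 and 3.87, and LOXL1 was 1.57 times LOXL3 with no overlap. LOXL3 and LOXL4 could not be ordered there: their means were 1.26 FPKM each and LOXL3 was the higher in 1 of 3 libraries.

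The summed level of the family was 82.7, 76.7 and 78.0 FPKM with the vector and 67.3, 69.1 and 70.9 FPKM with ADAMTS1. LOXL2 made up 85.3% ± 0.700 of this sum with the vector and 82.4% ± 0.300 with ADAMTS1 (SD, n = 3), and LOX made up 8.87% ± 0.479 and 11.1% ± 0.173. Without LOXL2, the other 4 members summed to 12.3, 11.7 and 10.8 FPKM with the vector and to 11.6, 12.3 and 12.6 FPKM with ADAMTS1, and the groups overlapped. The sum of the whole family thus separated the groups, and that of the other 4 members did not. As LOXL2 made up most of the family sum, that sum largely restates the level of LOXL2. Other subsets were not summed.

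Ratios between members within a library do not depend on how libraries are scaled to each other. The level of LOXL2 over that of LOX was 9.96, 8.996 and 9.97 in the vector libraries and 7.56, 7.38 and 7.29 in the ADAMTS1 libraries. These values did not overlap, and the means were 9.64 ± 0.558 and 7.41 ± 0.139. The level of LOXL2 over that of LOXL1 was 35.3 ± 1.995 and 28.7 ± 1.44, also with no overlap. LOX over LOXL4 was 3.94, 4.96 and 4.68 with the vector and 6.76, 5.90 and 5.80 with ADAMTS1, with no overlap. LOXL2 over LOXL4, the 2 members lower with ADAMTS1, was 43.5 ± 3.84 and 45.6 ± 4.77, and the groups overlapped. For LOXL2 over LOX and LOX over LOXL4 the separation follows from the levels above, where the members of each pair separated the groups in opposite directions, and it adds no support to them. LOXL1 overlapped between the groups, so the separation of LOXL2 over LOXL1 restates that of LOXL2 and adds no support either.

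**Figure D3:**
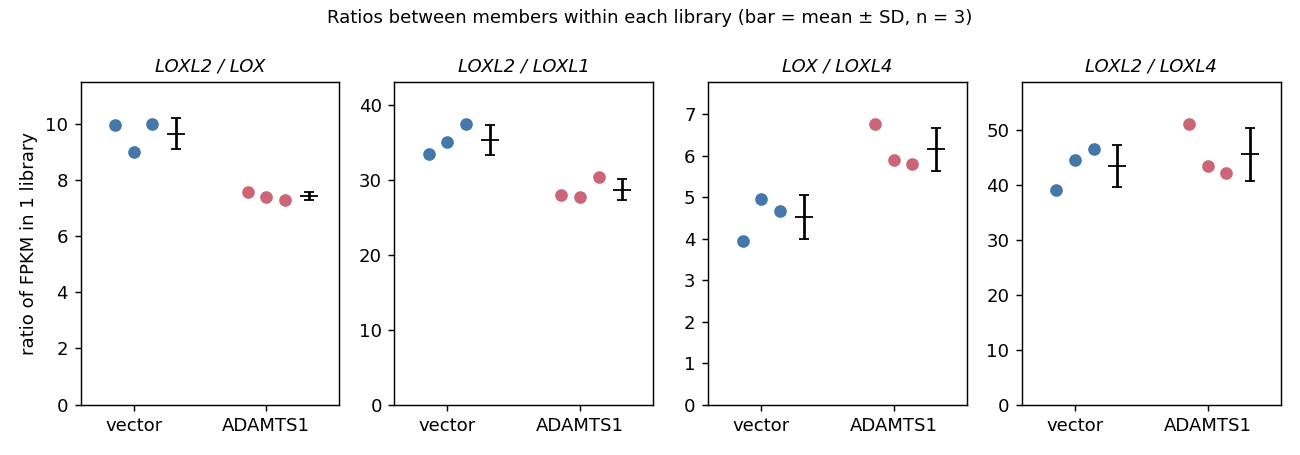
Ratio of FPKM between 2 members within each library (vertical axes from 0, a different range in each panel), 3 vector libraries in blue and 3 ADAMTS1 libraries in red, with the mean ± SD. LOXL2 over LOX and LOXL2 over LOXL1 are lower with ADAMTS1 in every library, LOX over LOXL4 is higher, and LOXL2 over LOXL4 overlaps.

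The gene models follow the protein types. In GENCODE 29 the longest coding transcript has 7 exons in LOX and in LOXL1, 14 in LOXL2 and in LOXL3, and 15 in LOXL4. LOXL2 spans 128140 bases of the genome, against 15166 for LOX and 20561 to 26149 for the other 3. All 5 are protein-coding genes on 5 different chromosomes, and their identifiers matched those of the table. No strand setting was given in the sources used here, so reads of overlapping genes on opposite strands cannot be told apart. LOX overlaps SRFBP1, a cofactor of serum response factor, over 12376 bases, and SRFBP1 was at 9.11 ± 0.847 FPKM with the vector and 9.63 ± 0.0661 FPKM with ADAMTS1. LOXL1 overlaps its antisense RNA LOXL1-AS1 over 2260 bases, and this RNA was at 4.49 ± 0.263 and 4.52 ± 0.364 FPKM, above LOXL1 itself. LOXL3 overlaps DOK1, an adaptor of tyrosine kinase signalling, over 6665 bases and HTRA2, a mitochondrial protease, over 1075 bases, both on the opposite strand and with group means of 11.02 to 11.8 FPKM. LOXL2 overlaps the nucleotidase gene ENTPD4 over 39546 bases on its own strand, and ENTPD4 was at 8.97 ± 0.714 and 8.71 ± 0.560 FPKM.

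The other entry inside LOXL2 lies on the opposite strand and has only an identifier, ENSG00000253837. It was at 0.497, 0.579 and 0.457 FPKM with the vector and at 0.371, 0.226 and 0.238 FPKM with ADAMTS1. The groups did not overlap, in the same direction as LOXL2, and the entry was under the level at which genes were tested. R3HCC1, next to LOXL2 at a distance of 617 bases, was at 12.3 ± 0.265 and 10.98 ± 0.136 FPKM with no overlap, and did not pass (limma adjusted p = 0.191). The entry inside LOXL4, ENSG00000230928, was at no more than 0.322 FPKM in any library.

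For each member, the 2 genes of at least 5 FPKM whose course over the 6 libraries lay closest were found by the root mean square difference in centred log2(FPKM + 1). For LOXL2 these were CERK, the ceramide kinase, at a difference of 0.0203, and the non-coding MIR503HG at 0.0255, where LOXL2 itself varied by 0.127 around its mean. CERK was at 11.5 ± 0.646 and 9.51 ± 0.253 FPKM. For LOX they were MICB, a stress ligand of the receptor NKG2D, at 0.0158, and SRPRB, a subunit of the signal recognition particle receptor, at 0.0162. For LOXL4 they were MPG, a DNA glycosylase of base excision repair, and TMEM205. For LOXL1 they were CUTA and UBE2N, a ubiquitin-conjugating enzyme, and for LOXL3 they were LIMD2 and NGRN. With 6 libraries and so many candidate genes, a close course is no sign of a shared role.

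The genes that act with lysyl oxidases were read from 11 lists of 181 genes in all, of which 173 were matched in the table and 121 were tested. Over all tested genes 1 of these 121 rose and 0 fell at a limma adjusted p under 0.05, against a background of 0.0588% higher and 0.00841% lower. At an unadjusted p under 0.05, 7 were higher and 18 lower, against 5.42% and 6.78% of all tested genes. The median difference was −0.016, against −0.0078 over all tested genes. The same shares and the same median of all tested genes stand beside the counts of each list below. The lists, like the members, were chosen with earlier results of these data known. Nothing is read from these counts, pooled or by list.

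The gene that rose was THBS1, among the partners in processing and secretion (11 of 15 matched, 5 tested). Thrombospondin-1 is a matrix glycoprotein known to bind LOX. It was at 67.0, 70.4 and 69.3 FPKM with the vector and at 82.3, 83.9 and 85.0 FPKM with ADAMTS1. The groups lay well apart, with a log2 difference of 0.28 ± 0.027 (limma adjusted p = 0.0417). It lost the call without any 1 of the 6 libraries, with an adjusted p of 0.0897 to 0.212. BMP1, the procollagen C-proteinase that cuts the LOX propeptide, was at 3.52 ± 0.361 and 3.49 ± 0.122 FPKM (adjusted p = 0.976). FN1, the fibronectin scaffold on which LOX is activated, was at 5.31 ± 0.222 and 5.64 ± 0.533 FPKM (adjusted p = 0.719). PCOLCE2, an enhancer of procollagen cleavage named after its values were seen, was at 1.56 ± 0.0829 and 2.29 ± 0.443 FPKM with no overlap (adjusted p = 0.297).

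Copper reaches the enzymes through transporters and chaperones, and of 13 tested genes of copper supply 0 passed limma (0 higher and 1 lower at an unadjusted p under 0.05; median 0.0011). The metal-binding metallothioneins MT2A and MT1E were the highest, MT2A at 925 ± 18.1 and 923 ± 72.4 FPKM and MT1E at 97.9 ± 1.77 and 92.7 ± 8.42 FPKM. The importer SLC31A1, chosen after its values were seen, was at 11.6 ± 0.881 and 11.6 ± 0.637 FPKM. Of the other copper amine oxidases only AOC2 was tested, at 1.66 ± 0.0475 and 1.91 ± 0.295 FPKM (adjusted p = 0.642).

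The substrates were in part absent. Of 11 fibrillar collagen genes 10 were matched in the table, 3 were tested and 6 averaged under 0.1 FPKM, and 0 passed (0 higher and 1 lower at an unadjusted p under 0.05; median −0.098). COL5A1 was the highest, at 15.3 ± 0.140 and 13.98 ± 0.937 FPKM with no overlap (adjusted p = 0.364), and COL27A1 was at 5.16 ± 0.174 and 5.05 ± 0.304 FPKM. Elastin (ELN), the main substrate in elastic tissue, was listed at no more than 0.0204 FPKM in any library. Of 10 tested genes of the elastic fibre scaffold 0 passed (0 higher and 1 lower unadjusted; median 0.0042). LTBP4, which holds latent TGF-beta and guides elastic fibre assembly, was at 26.8 ± 2.002 and 23.1 ± 0.376 FPKM with no overlap (adjusted p = 0.238). TNC, the matrix protein tenascin-C, was at 34.7 ± 0.415 and 34.7 ± 1.29 FPKM.

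Of 7 tested collagen IV and basement membrane genes 0 passed, with a median of −0.069. At an unadjusted limma p under 0.05, 0 were higher and 3 lower, against 5.42% and 6.78% of all tested genes. Nothing is read from these counts. LAMA5, the laminin alpha-5 chain, was at 47.8, 46.1 and 44.7 FPKM with the vector and at 38.4, 34.9 and 38.7 FPKM with ADAMTS1. The groups were apart, with a log2 difference of −0.30 ± 0.046 that missed the threshold (adjusted p = 0.103) and passed it among genes of at least 5 FPKM (0.0349). PXDN, the peroxidase that cross-links collagen IV, was at 44.0 ± 0.634 and 41.6 ± 1.16 FPKM with no overlap (adjusted p = 0.363). The collagen IV chain genes COL4A1 and COL4A2, chosen after their values were seen, were at 10.4 ± 0.326 and 10.9 ± 0.331 FPKM and at 24.2 ± 0.303 and 24.9 ± 0.205 FPKM. COL4A1 overlapped, while COL4A2 did not, with the ADAMTS1 libraries above (limma adjusted p = 0.593).

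Collagen chains are hydroxylated, glycosylated and folded before lysyl oxidases act on them. Of 19 tested genes of these steps 0 passed (1 higher and 1 lower unadjusted; median −0.022). The collagen galactosyltransferase COLGALT1 was at 77.4 ± 2.08 and 76.9 ± 2.57 FPKM, and P4HB, a subunit of prolyl hydroxylase, was at 52.0 ± 1.47 and 51.5 ± 1.22 FPKM. PLOD2, the lysyl hydroxylase that prepares the cross-linking sites, named with its values in view, was at 22.5 ± 0.374 and 22.7 ± 0.415 FPKM. Among 4 tested enzymes that cross-link matrix by other chemistry 0 passed (1 higher and 1 lower unadjusted; median −0.014). The transglutaminase TGM2 was at 54.8, 53.0 and 53.6 FPKM with the vector and at 60.3, 60.8 and 61.0 FPKM with ADAMTS1. Its groups were apart at a log2 difference of 0.17 ± 0.024, which missed the threshold (adjusted p = 0.0922) and passed it among genes of at least 5 FPKM (0.0351). The sulfhydryl oxidase QSOX1 was at 76.4 ± 1.04 and 74.3 ± 0.494 FPKM with no overlap (limma adjusted p = 0.538).

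**Figure D4:**
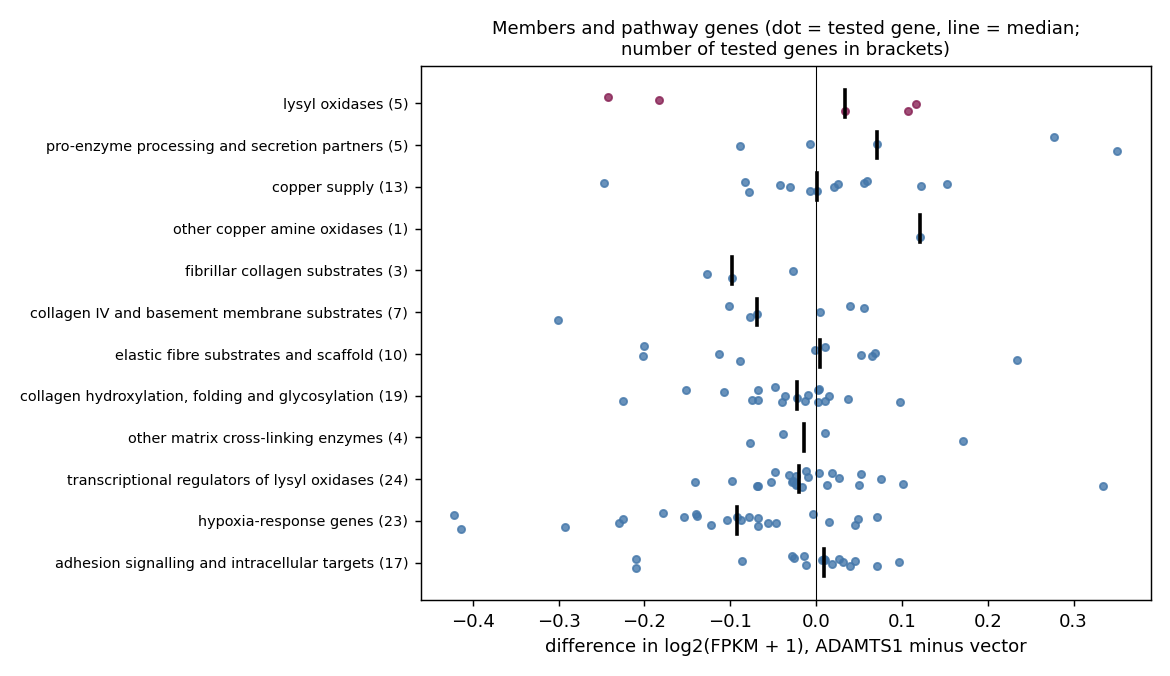
Difference in log2(FPKM + 1), ADAMTS1 minus vector, of the 5 lysyl oxidases (top, purple) and of the tested genes of each pathway list (blue), with a black line at each median and the number of tested genes in brackets. The medians lie between −0.098 for fibrillar collagens and 0.12 for the single amine oxidase, and the hypoxia-response genes spread mostly to the left of 0.

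Of 24 tested regulators of lysyl oxidase transcription 0 passed (1 higher and 1 lower unadjusted; median −0.019). The highest were FOSL1, at 315 ± 10.1 and 305 ± 1.76 FPKM, and JUN, at 99.9 ± 1.10 and 98.3 ± 2.92 FPKM, both subunits of AP-1. JUN overlapped between the groups, while FOSL1 did not (limma adjusted p = 0.535). HIF1A, the oxygen-regulated subunit of HIF-1, was at 67.0 ± 0.801 and 65.7 ± 1.61 FPKM, and SNAI1, the Snail repressor, was at 3.32 ± 0.428 and 2.93 ± 0.532 FPKM. Its relative SNAI2, or Slug, was at 5.02 ± 0.215 and 6.59 ± 0.144 FPKM with no overlap, a log2 difference of 0.33 ± 0.045 that missed the threshold (adjusted p = 0.0922) and passed it among genes of at least 5 FPKM. All 3 were named with their values in view. Of 23 tested hypoxia-response genes 0 passed, while 0 were higher and 11 lower at an unadjusted p under 0.05, against 5.42% and 6.78% of all tested genes. In 12 of the 23 the ADAMTS1 libraries all lay below the vector libraries, against 10.6% of all tested genes, and the list median was −0.092. As this list too was chosen with earlier results of these data known, nothing is read from these counts. The highest genes of the list were the glycolytic genes ENO1, at 545 ± 12.2 and 528 ± 7.74 FPKM, and LDHA, at 225 ± 3.15 and 212 ± 2.74 FPKM. ENO1 overlapped between the groups, while LDHA did not (limma adjusted p = 0.238). VEGFA, named with its values in view, was at 14.3 ± 0.569 and 10.4 ± 0.816 FPKM with no overlap. Its log2 difference of −0.42 ± 0.058 missed the threshold (limma adjusted p = 0.0922) and passed it among genes of at least 5 FPKM.

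Of 17 tested genes of adhesion signalling and intracellular targets 0 passed (2 higher and 0 lower unadjusted; median 0.0096). CCN1, a matricellular target of YAP, was at 376 ± 6.14 and 369 ± 2.45 FPKM, and VIM was at 308 ± 5.71 and 323 ± 10.3 FPKM. CDH1, the E-cadherin gene that Snail represses, was listed at no more than 0.0434 FPKM in any library.

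**Figure D5:**
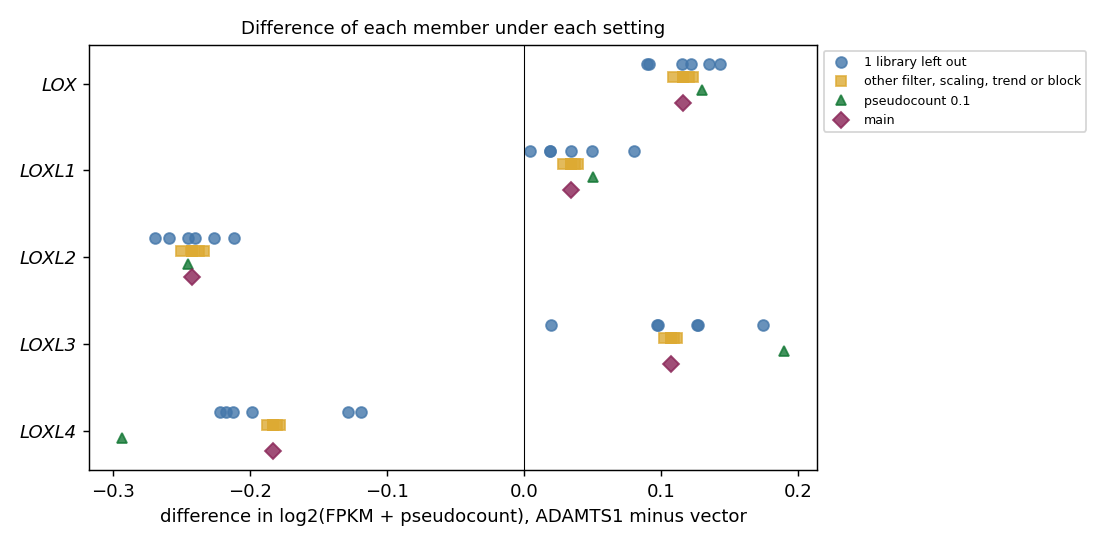
Difference of each member between the groups on the log2 scale under the main setting (purple diamonds), with 1 library left out (blue circles), with a pseudocount of 0.1 (green triangles) and with another filter, scaling, variance trend or replicate block (yellow squares). The filter, the variance trend and the replicate block cannot move a point. At a mean of at least 5 FPKM only LOX and LOXL2 have one. No member crosses 0. LOX lies between 0.090 and 0.14, LOXL1 between 0.0040 and 0.080 and LOXL2 between −0.27 and −0.21. LOXL3 lies between 0.019 and 0.19 and LOXL4 between −0.29 and −0.12.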

How the data were processed

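Total RNA libraries of 6 samples were sequenced. The values were FPKM per gene and library, as the authors deposited them. StringTie, HISAT2, FastQC and hg38 are named per the submitters' processing notes, and versions, roles and annotation were not given in the sources used here. Of 32119 entries, 284 repeats of a symbol were dropped in favour of the highest mean, which left 31835 genes. FPKM divides by the library total, so a difference is relative to the rest of the library. Relative depth came from the commonest ratio of low FPKM values (0.02 to 0.5) between libraries, since absolute depth is unknown.

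Genes with a mean of at least 1 FPKM (11897) were compared with limma 3.58.1 in R 4.3.3 (lmFit, eBayes with trend) on log2(FPKM + 1), two-sided, with Benjamini-Hochberg adjustment over all of them and a threshold of 0.05. The fit was tested on simulated data, with steps larger than any member difference and in genes above the level of LOXL1, LOXL3 and LOXL4. That test does not show how the fit treats differences as small as those of the members. Adding 1 reduces the fold of low genes. Promoters were RefSeq windows on GRCh38.p14, and gene models were GENCODE 29. Figures used Matplotlib 3.10.9 in Python 3.11.15.

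The members and lists were chosen with earlier results of these data known. By rule, the text names the members, ADAMTS1, up to 4 list genes past the threshold, the 2 highest of each list, genes next to members and the 2 closest courses; BMP1, ELN, CDH1, TIE1 and the defining cell markers were added with their values in view, and so were others marked in the text. Alternatives were a pseudocount of 0.1, no filter or a mean of at least 5 FPKM, 3 scalings, no trend, a replicate block and each library left out.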

Additional observations from a re-analysis of the deposited data

How the results depend on the processing

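Another filter, no trend and the replicate block cannot change the difference of a member. At a mean of at least 5 FPKM only LOX and LOXL2 were fitted. Under the pseudocount of 0.1, the 3 scalings and each library left out, the difference of each member kept its sign. It moved by more than the replicate SD only for LOXL4 with a pseudocount of 0.1 (−0.29 ± 0.15). For LOXL1 a kept sign says little, as its difference (0.034 ± 0.071) was under its standard error. Genes past the threshold numbered 8 over all tested genes, and 1 with no filter on low values, 31 at a mean of at least 5 FPKM, 3 with a common sum of FPKM, 2 with no variance trend and 1 to 5 with a library left out. Of the pathway genes 1 (THBS1) passed, against 0 with no filter, a common sum of FPKM, no trend or any library left out, and 5 at a mean of at least 5 FPKM (LAMA5, SNAI2, TGM2, THBS1 and VEGFA). In their deviations from the group means, same-numbered libraries correlated at −0.0022, 0.018 and −0.093. Libraries with different numbers correlated at −0.070 to 0.075. No shared deviation by replicate number was seen, which does not show whether the libraries were made in pairs. With the replicate block 1 gene of all tested and 0 pathway genes passed. The share of LOXL2 in the family sum was 85.0 to 85.6% with the vector and 82.2 to 82.5% with ADAMTS1 when a library was left out. LOXL4 then stood above LOXL3 without ADAMTS1 replicate 1. Small differences turned sign under some settings: TNC (0.0030 at a common upper quartile, 0.0064 by median of ratios, −0.025 to 0.027 with a library left out) and MT2A (0.0013 by median of ratios, −0.059 to 0.054 with a library left out). With a library left out, COL27A1 ranged from −0.060 to 0.012, COLGALT1 from −0.031 to 0.016 and P4HB from −0.029 to 0.0096. The cause was not tested. The number of fragments behind a level is unknown, so no counting error can be given for members at 1 to 2 FPKM.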
